A study of Mus musculus with 15 samples.

Results

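The ErbB receptors (Egfr, Erbb2, Erbb3 and Erbb4), 5 EGF-type ligands (Hbegf, Areg, Ereg, Tgfa and Btc) and Errfi1, a cytoplasmic inhibitor of these receptors, were followed in glioma cells that differentiated in endothelial growth medium. They were selected by gene symbol, and these 10 genes were taken from the 49585 of the count table. Poly(A) RNA had been sequenced from 15 libraries in 5 groups of 3. One group was tumor-derived endothelial cells (TDECs) that had been differentiated for 5 days and then given 5 µM sertraline, a serotonin reuptake inhibitor, for 24 h. The others were 005 cells, a mouse glioma stem cell line kept in serum-free stem cell maintenance medium, TDECs made from 005 for 2 days and for 5 days in EGM-2 at 1% oxygen, and purchased mouse brain microvascular endothelial cells (MBMECs) in a serum-containing medium. All samples carry the strain label C57BL/6. TDECs all derive from the 005 line, MBMECs differ from them in source and medium, and the oxygen of 005 and of MBMECs is not given. Between 005 and TDECs the medium changed along with differentiation, and the oxygen may have, so that these cannot be told apart. The untreated TDEC label gives no day and was taken as day 5. The treated cells may therefore be 1 day older than the untreated ones, and their titles lack a prefix that the untreated TDEC titles carry, so that a separate experiment and the drug cannot be told apart. MBMEC titles lack this prefix too, so a separate experiment and the cell source cannot be told apart either.

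ErbB receptors are tyrosine kinases that pair when an EGF-type ligand binds. Egfr and Erbb4 have both ligand binding and kinase activity, Erbb2 has no known soluble ligand and acts as a partner, and Erbb3 has a weak kinase and signals through its partners. The ligands are made as membrane-bound precursors and released by ADAM proteases, and the receptors are well known for their part in glioma growth, where EGFR is often amplified in human tumors.

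Libraries held 13557376 to 13639357 counts in TDECs with sertraline, 12732819 to 12972933 in 005, 12049384 to 13642496 in TDEC day 2, 11283680 to 12455832 in TDEC day 5 and 15617686 to 17093061 in MBMECs. Replicate 3 stood apart in 005 and in TDEC day 2, at a chi-square per gene of 10.5 to 11 from its fellow libraries, against 2.1 and 2.47 for the remaining pairs. Replicate 2 of the sertraline group also stood apart, at 6.57 to 6.84 against 2.22. The defining endothelial markers were near absent in TDECs: their sum over 8 genes was 5.13 to 5.74 CPM at day 5, against 6340 to 6440 CPM in MBMECs, and Cldn5 and Tie1 had no counts at day 5. The neural and glioma stem cell markers Sox2, Olig2, Olig1, Nes and Prom1 each averaged at least 1 CPM in 005 and in every TDEC group, while Sox2 and Olig2 had no counts in MBMECs. TDEC is thus used here as the name of the culture. In such bulk RNA, fewer cells that use a gene and less RNA per cell cannot be told apart. Levels are CPM, read counts divided by library size as scaled by TMM over the 15 libraries. Genes were called by the quasi-likelihood test of edgeR at an adjusted p under 0.05 with a fold change above 2, both sides tested.

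Egfr RNA fell early in differentiation and was higher with sertraline. The gene lies at chr11:16752203-16918158 on the + strand (mm10) and encodes the receptor that binds all 5 ligands measured here. Its level was 30.2, 29.6 and 28.7 CPM in 005, 13.7, 13.9 and 12.4 CPM at day 2, and 15.4, 15.9 and 15.1 CPM at day 5. Every differentiating library was thus below every 005 library. At day 2 the log2 fold change against 005 was −1.16 ± 0.11 (SE, adjusted p = 1.6e-05, edgeR). At day 5 it was −0.95 ± 0.09 (adjusted p = 1.7e-06), which is short of the 2-fold threshold, and it passed that threshold, at −1.08, when library totals replaced TMM. Between day 5 and day 2 the log2 fold change was 0.20, which missed the threshold (adjusted p = 0.15).

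With sertraline, Egfr stood at 32.2, 33.7 and 34.5 CPM, against 15.4, 15.9 and 15.1 CPM in untreated TDEC day 5. The groups did not overlap, and the gene rose by a log2 fold change of 1.11 ± 0.09 (SE, adjusted p = 1.3e-07, edgeR). The mean of the treated cells was 33.5 ± 1.19 CPM (SD, n = 3), next in the order of levels to that of 005, 29.5 ± 0.77 CPM. Every treated library was above every 005 library (28.7 to 30.2 CPM). The difference did not pass the threshold (log2 difference 0.18, adjusted p = 0.15 in the 15-library fit). MBMECs had the lowest Egfr level. TDEC day 5 was above MBMECs, which had 2.33, 2.81 and 1.38 CPM, by a log2 fold change of 2.82 ± 0.18 (adjusted p = 1.2e-14). Egfros, a gene antisense to Egfr, had at most 0.06 CPM in any group.

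Erbb4, a receptor for neuregulins as well as for Hbegf and Btc, fell and then rose. It had 8.16, 9.91 and 6.38 CPM in 005, 3.49, 3.23 and 2.66 CPM at day 2, and 12.4, 11.4 and 14 CPM at day 5. None of these 3 groups overlapped. Its log2 fold change was −1.39 ± 0.22 at day 2 against 005 (SE, adjusted p = 0.00057) and 1.99 ± 0.17 at day 5 against day 2 (adjusted p = 2.2e-06). Day 5 was 0.62 ± 0.17 above 005 on the log2 scale (adjusted p = 0.0059), short of the 2-fold threshold. MBMECs had no Erbb4 counts, while TDEC day 5 had 442, at least 191-fold higher when 3 counts over the group are taken as the floor for MBMECs. The sertraline libraries spread widely, at 15.6, 10.9 and 20.3 CPM, and overlapped with untreated day 5 (log2 fold change 0.30, adjusted p = 0.20). On the strand of Erbb4, 8 predicted genes lie within it at chr1:68032186-69108059, and none averaged more than 0.05 CPM in a group.

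Erbb2, the partner receptor at chr11:98412470-98437716, was highest in MBMECs. Day 5 libraries had 20.1, 22.1 and 25.3 CPM, day 2 libraries 13.9, 14.9 and 13.0 CPM, and MBMECs 37.7, 37.7 and 38.1 CPM. Day 5 lay above day 2 and below MBMECs in all libraries, but neither of these differences reached 2-fold. The log2 fold change was 0.68 ± 0.12 for day 5 against day 2 (adjusted p = 0.00047) and −0.74 ± 0.09 for day 5 against MBMECs (adjusted p = 5.4e-09). Values of 27.1, 24.6 and 28.2 CPM with sertraline overlapped with those of untreated day 5 (log2 fold change 0.23, adjusted p = 0.084), and day 2 overlapped with 005, which had 14.7, 11.7 and 14.4 CPM. Mien1, which overlaps Erbb2 on the opposite strand, averaged 30.2 CPM at day 5 and 48.2 CPM in MBMECs. Whether reads were assigned by strand is not given in the sources used here, so reads of this overlap cannot be told apart.

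Erbb3 was scarcely detected. It had 31 counts over the 3 sertraline libraries, 19 in 005, 13 at day 2, 27 at day 5 and 5 in MBMECs, and its group means were all under 1 CPM. It passed the filter on low counts in none of the 5 comparisons and was not tested.

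**Figure D1:**
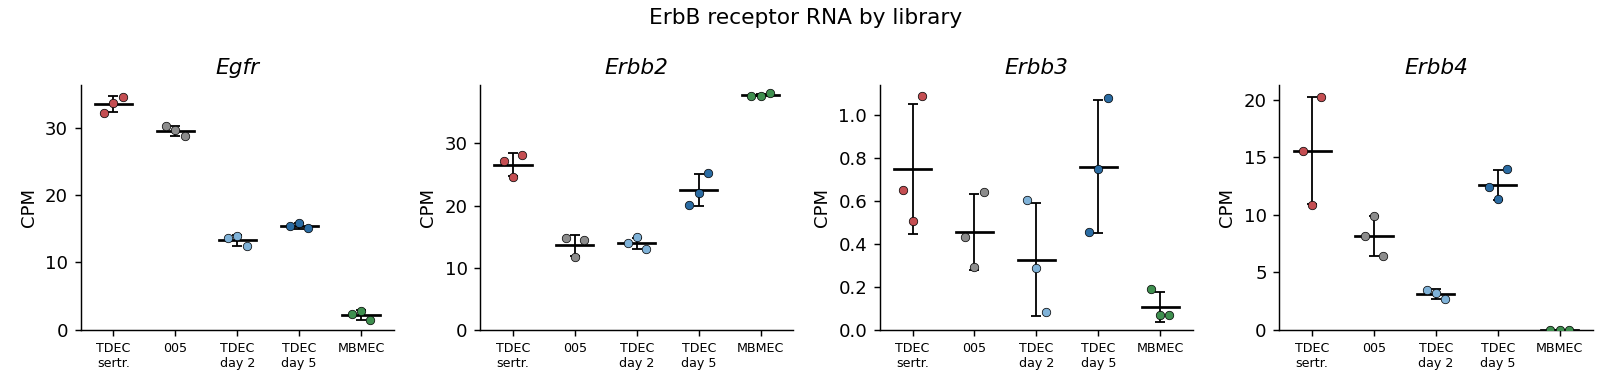
CPM of the 4 receptors in each library (points), with the group mean (line) and SD (bar), n = 3 per group, each panel on its own axis. Egfr was highest with sertraline and in 005, Erbb2 in MBMECs, Erbb4 dipped at day 2 and had no counts in MBMECs, and Erbb3 stayed under 1.1 CPM.

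Hbegf was the 1 of these 5 ligands called higher with sertraline. It encodes a heparin-binding EGF-type ligand for Egfr and Erbb4. The treated libraries had 145, 150 and 126 CPM, against 60.9, 51.2 and 52.0 CPM in untreated TDEC day 5. All treated libraries were above all untreated ones, and Hbegf rose by a log2 fold change of 1.35 ± 0.08 (SE, adjusted p = 3.3e-09, edgeR). Day 5 itself was above 005, which had 18.0, 18.1 and 17.6 CPM, by 1.59 ± 0.09 on the log2 scale (adjusted p = 1.6e-08). At day 2 the level was 35.3, 29.9 and 75.3 CPM, and replicate 3, a library that stands apart, held the highest value. The day 2 call against 005 (log2 fold change 1.36 ± 0.28, adjusted p = 0.0029) depended on that library. Without it the log2 fold change was 0.85 (adjusted p = 0.00026), and without replicate 3 of both groups it was 0.86, both under the 2-fold threshold. Day 5 against day 2 also turned on this library: the groups overlapped, with a log2 fold change of 0.22 (adjusted p = 0.50), and without day 2 replicate 3 it was 0.72 (adjusted p = 2.1e-08), under the fold threshold. Day 5 and MBMECs overlapped, at 54.7 ± 5.37 and 52.0 ± 2.28 CPM (SD, n = 3 each), with a log2 fold change of 0.07 ± 0.07 (adjusted p = 0.34).

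Areg encodes amphiregulin, an Egfr ligand, and rose over differentiation. It had 10.5, 9.69 and 12.5 CPM in 005, 15.9, 13.8 and 14.1 CPM at day 2, and 31.2, 30.4 and 27.1 CPM at day 5. The 3 groups did not overlap. Day 5 exceeded 005 by a log2 fold change of 1.43 ± 0.12 (SE, adjusted p = 5.1e-07), while day 2 differed from 005 by 0.41 (adjusted p = 0.046), under the fold threshold. Between day 5 and day 2 the log2 fold change of 1.00 ± 0.11 (adjusted p = 9.8e-06) sat on the threshold: it was 0.95 with library totals, 0.99 with no filter on low counts, and 0.96 to 0.98 when day 5 replicate 1 or 2, or day 2 replicate 2 or 3, was left out, so that the call was lost. MBMECs had very little Areg, at 1.45, 1.54 and 0.55 CPM, and day 5 was above them by 4.63 ± 0.18 on the log2 scale (adjusted p = 8.3e-20). Sertraline libraries had 30.6, 43.2 and 25.5 CPM and overlapped with untreated day 5 (log2 fold change 0.15, adjusted p = 0.42). The highest of them was replicate 2, which stands apart from its group.

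Ereg, Tgfa and Btc, all further ligands of Egfr, were highest in MBMECs. Ereg encodes epiregulin and lies next to Areg, at chr5:91074622-91093646 against chr5:91139599-91148432, with Btc at chr5:91357261-91402994. These close positions went with different levels. Ereg had 0.55, 0.25 and 0.66 CPM at day 5, against 29.7, 36.3 and 28.9 CPM in MBMECs, and was lower in TDEC day 5 by a log2 fold change of −6.00 ± 0.21 (SE, adjusted p = 6.2e-21). Its counts summed to 9 with sertraline, 1 in 005, 3 at day 2 and 17 at day 5, too few to pass the filter in the other comparisons. The ratio of day 5 to day 2 was 6.33, with a 95% interval of 1.83 to 33.7 that covers counting error alone.

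Tgfa, which encodes transforming growth factor alpha, did not differ at the threshold among the glioma-derived groups. It had 3.26, 2.97 and 4.66 CPM with sertraline and 2.73, 3.84 and 2.65 CPM at day 5, within the spread of 2.01 to 5.74 CPM in 005 and day 2. MBMECs had 57.9, 59.6 and 56.7 CPM, and day 5 was lower by a log2 fold change of −4.23 ± 0.11 (SE, adjusted p = 1.6e-23).

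Btc, which encodes betacellulin, a ligand of Egfr and Erbb4, was low but rose with differentiation. It had 0.36, 0.59 and 0.65 CPM in 005, 1.44, 1.65 and 1.58 CPM at day 2, and 1.64, 1.17 and 1.90 CPM at day 5. Both TDEC groups were above 005 in every library, by 1.52 ± 0.38 at day 2 (SE, adjusted p = 0.0089) and 1.53 ± 0.37 at day 5 (adjusted p = 0.0032) on the log2 scale. Day 5 lay below MBMECs, which had 7.43, 6.76 and 8.41 CPM, by a log2 fold change of −2.25 ± 0.22 (adjusted p = 1.7e-10). With sertraline the values of 2.39, 2.53 and 1.75 CPM overlapped with untreated day 5 (log2 fold change 0.49, adjusted p = 0.20).

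**Figure D2:**
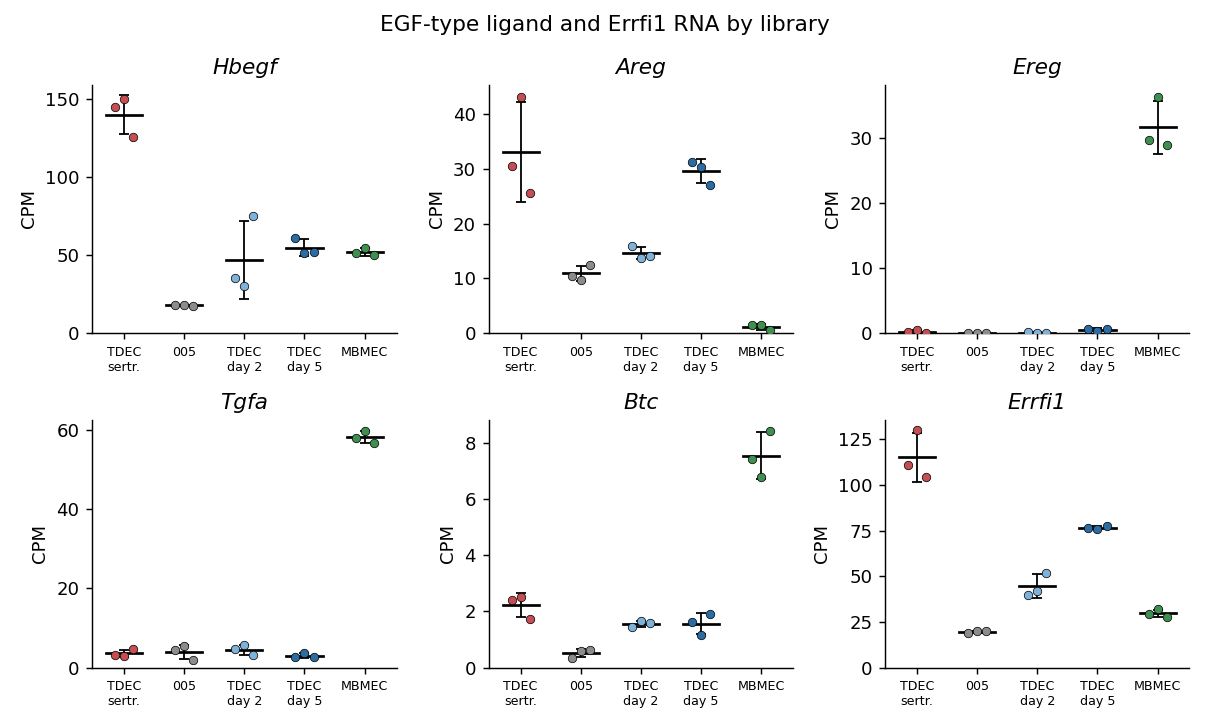
CPM of the 5 ligands and of Errfi1 in each library (points), with the group mean (line) and SD (bar), n = 3 per group, each panel on its own axis. Hbegf and Errfi1 were highest with sertraline, Ereg, Tgfa and Btc in MBMECs, and Areg in the day 5 and sertraline TDECs.

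Errfi1 encodes MIG6, which binds the kinase domain of ErbB receptors and holds them inactive, and is itself a gene that receptor signalling is known to induce. It lies at chr4:150853919-150868892. The level was 19.1, 20 and 20.1 CPM in 005, 39.9, 41.8 and 52.0 CPM at day 2, and 76.6, 75.7 and 77.4 CPM at day 5. Each step was without overlap. Against 005 the gene rose by 1.15 ± 0.12 at day 2 (SE, adjusted p = 2.6e-05) and by 1.94 ± 0.07 at day 5 (adjusted p = 3.4e-10) on the log2 scale, and day 5 exceeded day 2 by 0.77 ± 0.09 (adjusted p = 3.1e-05), under the fold threshold. Day 5 was also above MBMECs, which had 29.6, 31.9 and 27.6 CPM, by a log2 fold change of 1.37 ± 0.07 (adjusted p = 7e-17). Sertraline libraries had 111, 130 and 104 CPM, all above the untreated 75.7 to 77.4 CPM, with a log2 fold change of 0.58 ± 0.07 (adjusted p = 1.7e-05) that was also under the fold threshold. Errfi1 was the one member in which all 4 neighbours in the order of group levels differed at an adjusted p under 0.05, in the order sertraline, day 5, day 2, MBMECs, 005.

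The promoters of Areg and Errfi1 are shown because both hold a full cyclic AMP response element (CRE, TGACGTCA, a palindrome) just before a transcription start. Both genes also stood higher at day 5 than in 005 and in MBMECs, which played no part in the choice. RefSeq (GRCm38.p6, the mm10 build) gave windows of 300 bases, 250 before and 50 after the start, for 7 of the 10 genes. These made 8 windows, since Errfi1 has a second start. Hbegf, Ereg and Erbb3 had no window, so their promoters were not searched for any motif. The Areg stretch is chr5:91139349-91139598 and that of the downstream Errfi1 start is chr4:150854820-150855069, both + strand and written 5′ to 3′ up to the base before the start, with the CRE in capitals.
Areg: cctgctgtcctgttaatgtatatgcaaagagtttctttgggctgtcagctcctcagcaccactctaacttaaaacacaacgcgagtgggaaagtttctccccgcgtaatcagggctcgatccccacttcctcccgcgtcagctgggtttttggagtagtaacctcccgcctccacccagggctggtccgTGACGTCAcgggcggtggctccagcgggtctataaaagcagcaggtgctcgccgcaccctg
Errfi1: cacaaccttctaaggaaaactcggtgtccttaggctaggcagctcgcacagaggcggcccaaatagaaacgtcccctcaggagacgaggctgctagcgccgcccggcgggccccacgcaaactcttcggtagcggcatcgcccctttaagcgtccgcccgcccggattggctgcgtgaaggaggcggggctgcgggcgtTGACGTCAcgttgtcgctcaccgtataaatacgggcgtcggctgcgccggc
The CRE stood 61 to 54 bases before the Areg start and 51 to 44 bases before the Errfi1 start. The other windows of these genes, that of the upstream Errfi1 start included, held no CRE. Of all 32851 promoter windows of this length, 1.79% held a CRE on either strand. Both promoters shown were picked for holding one, so this share is background and no test of them. In the Errfi1 window an ACGTG, the core of the hypoxia response element, was found on the opposite strand, where it overlapped the CRE at 45 to 41 bases before the start (CACGT as printed), and 19.6% of all windows held this core. None of the 8 windows held TGANTCA, the AP-1 motif, against 7.81% of all windows. So few windows do not bear a comparison with that share. A match describes letters in the window and shows no binding.

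Counted by comparison, 8 of the 10 genes were tested in each, and 9 against MBMECs. At day 2 against 005, 3 of 8 (Hbegf, Btc and Errfi1) were called higher and 2 (Egfr and Erbb4) lower, beside 5.35% and 4.48% of all genes tested. At day 5 against day 2, 2 (Erbb4 and Areg) were called higher, beside 11.1% of all genes. None was called lower, beside 9.35%, and neither DESeq2 nor an unadjusted p under 0.05 added one (0 by each). Day 5 against 005 gave 4 of 8 higher (Hbegf, Areg, Btc and Errfi1), beside 13.1%, and 0 lower, beside 10.4%. DESeq2 also called 0 lower there, and Egfr was the 1 gene at an unadjusted p under 0.05. The mitochondrial share was 3.52% ± 0.07% at day 5 against 2.36% ± 0.30% in 005 (SD, n = 3 each), and its part in these counts was not tested. The median log2 fold change of the tested members was 1.07 for day 5 against 005, where that of all genes was −0.01.

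Against MBMECs, day 5 had 4 of 9 genes higher (Egfr, Erbb4, Areg and Errfi1), beside 28.1% of all genes, and 3 lower (Ereg, Tgfa and Btc), beside 20.8%. Ereg passed the filter here only through its MBMEC counts (1433, against 17 at day 5), so it could not have been called higher. Erbb4, without counts in MBMECs, passed only through day 5 and could not have been called lower. With sertraline, 2 of 8 (Egfr and Hbegf) were called higher, beside 1.82% of all genes. None was called lower by edgeR, by DESeq2 or at an unadjusted p under 0.05 (0 by each), beside 3.26%. The median log2 fold change of the members was 0.39 with sertraline, where that of all genes was 0.00. Comparisons with TDEC day 5 share its libraries. Markers of other cells also differed between treated and untreated TDECs: the summed fibroblast and mural markers were at 15.2 to 18.5 CPM with sertraline, against 5.74 to 7.43 CPM, with 4 of 6 against 2 of 6 markers averaging at least 1 CPM. The 4 astrocyte markers summed to 869 to 905 CPM against 746 to 808 CPM, and the 5 microglia and leukocyte markers to 22.9 to 30.5 CPM against 33.8 to 39.4 CPM. Of the last list, Cd68 averaged 17.8 CPM against 28.1 CPM and Csf1r 8.97 CPM against 8.61 CPM, while Cx3cr1, Ptprc and Aif1 had at most 2 counts over a group in both. Mitochondrially encoded genes took 2.56% ± 0.08% of the counts with sertraline, against 3.52% ± 0.07% in untreated day 5 (SD, n = 3 each), without overlap. The part of these markers and of the mitochondrial share in the Egfr and Hbegf levels was not tested.

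**Figure D3:**
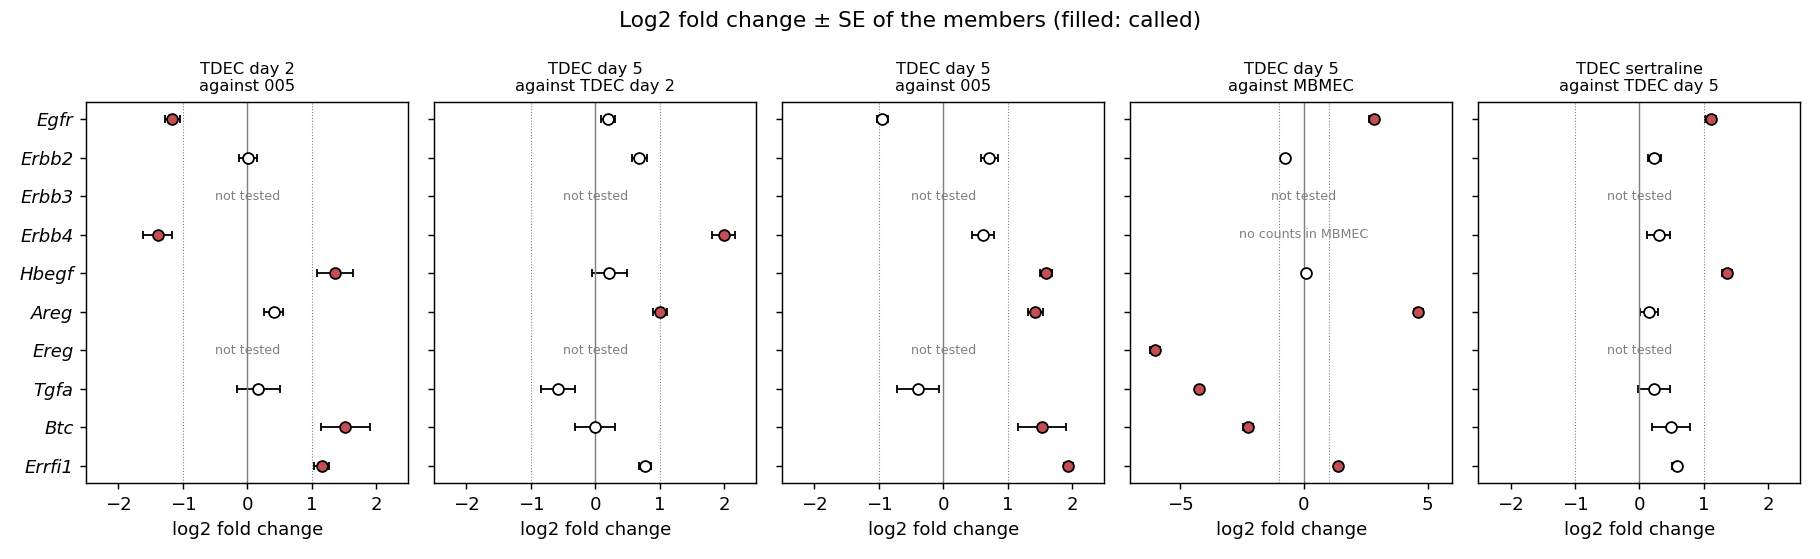
log2 fold change (edgeR) of each tested member in the 5 comparisons, with its SE as a bar and filled points for calls at an adjusted p under 0.05 and above 2-fold. Hbegf and Errfi1 lie to the right of 0 at day 2, at day 5 against 005 and with sertraline, and Ereg, Tgfa and Btc lie to the left against MBMECs, where Erbb4, which had no counts there, is not drawn.

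Per kilobase of exon, which allows levels of different genes to be set side by side, the 5 ligands summed to 13.4 ± 0.85 CPM per kb in 005 (SD, n = 3), 22.8 ± 4.75 at day 2 and 36.6 ± 2.54 at day 5. MBMECs had 30 ± 1.84, with another make-up. Their libraries, at 28.5 to 32, were all below the 34.1 to 39.2 of day 5. Areg was 66.5% of the ligand sum at day 5 against 3.20% in MBMECs, and Hbegf 30.9% against 35.9%. In MBMECs the rest was Tgfa at 29.9%, Ereg at 25.5% and Btc at 5.59%, with Hbegf the largest share of these 5. The neuregulin Nrg1, which is not in this sum, was at 11.2 CPM per kb in MBMECs. With sertraline the ligand sum was 57.4 ± 9.78 CPM per kb, 48.2 to 67.7 over libraries, above the 34.1 to 39.2 of untreated day 5, and Hbegf was 51.1% of it against 30.9%.

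Among the receptors, Erbb2 was 97.2% of the per-kilobase sum in MBMECs. At day 5 it was 63.2%, with Egfr at 20.1% and Erbb4 at 14.9%. Egfr and Erbb2 had equal shares of 43.8% in 005, and at day 2 Erbb2 was at 64.3% and Egfr at 28.3%. With sertraline Egfr was 31.4% of the receptor sum against 20.1% in untreated day 5. The receptor sum itself was 5.94 ± 0.25 CPM per kb in 005, 4.15 ± 0.30 at day 2 and 6.83 ± 0.61 at day 5 (SD, n = 3). With sertraline it was 9.45 ± 0.81, 8.67 to 10.3 over libraries, above the 6.3 to 7.5 of untreated day 5, and in MBMECs it was 7.47 ± 0.03.

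**Figure D4:**
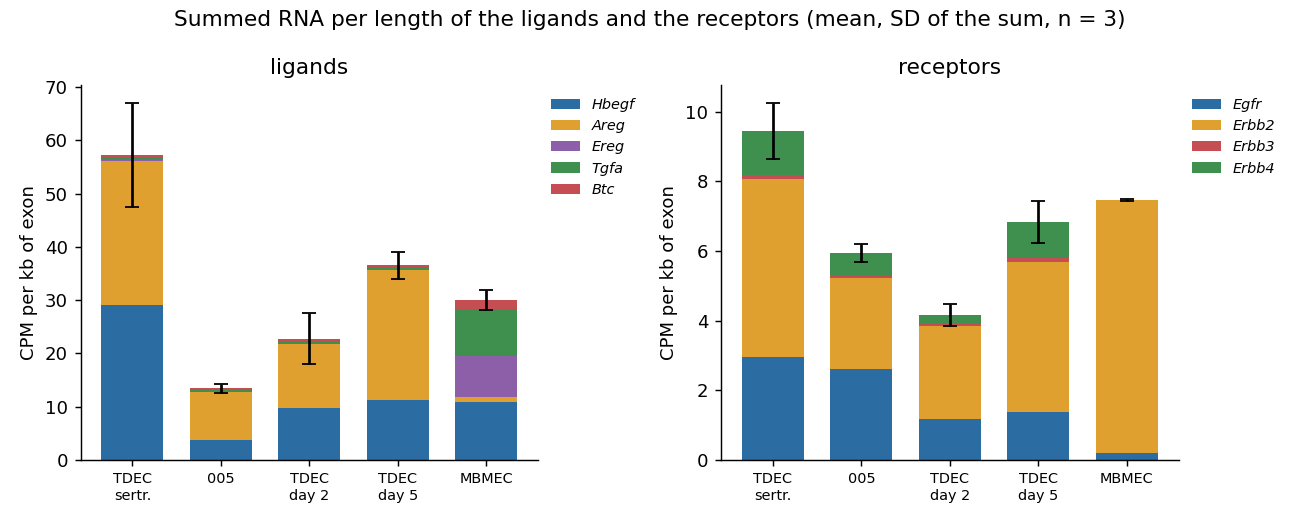
Stacked group means, in CPM per kilobase of exon (n = 3 per group), of the ligands and of the receptors. The ligand stack is tallest with sertraline and is made mostly of Hbegf and Areg in 005 and TDECs, while MBMECs add Tgfa, Ereg and Btc and have nearly all receptor RNA in Erbb2.

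Over the 15 libraries, the genes most like each member in log2 CPM were found among 13385 genes, as a description across 5 unlike groups that share their libraries. Errfi1 was most like Cdkn2b (Pearson r = 0.989), Lamb1 (0.986) and Sdc4 (0.982). Hbegf was most like the syndecan gene Sdc2 (0.971), then Pdia6 and Pcgf5 (0.968 each). The profile of Egfr lay closest to Rrp1b (0.987), Cmtm5 (0.983) and Zranb2 (0.981), and that of Areg to Phtf1os (0.993), Poln (0.989) and Mir99ahg (0.986). For Erbb4 they were Nkd1 (0.996), Kcnj4 and Prdm2 (0.995 each), and for Erbb2 Parp3 (0.983), Spryd3 (0.982) and Ifi27 (0.977). The MBMEC ligands were nearest to Stab1 (0.990), Plpp2 and Mtus2 (0.987 each) for Ereg, to Calcrl (0.987), Ptbp3 and Mbnl1 (0.986 each) for Tgfa, and to Sparc, Dapk2 (0.980 each) and Syn3 (0.978) for Btc.

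Other genes of the pathway were taken from 4 lists of 40 genes in all. Of 6 further EGF-family ligands, 4 were tested and 2 rose at day 5 against 005, where 13.1% of all genes were called higher. Egf had 5.10, 5.01 and 4.22 CPM at day 5 against 2.09, 1.69 and 2.22 CPM in 005 (log2 fold change 1.23 ± 0.22 SE, adjusted p = 0.00031), without overlap. Nrg2, a neuregulin, had 5.56, 6.85 and 6.45 CPM against 3.54, 1.98 and 2.08 CPM (1.30 ± 0.24, adjusted p = 0.00042), and both genes were also called higher at day 5 against day 2, by 1.16 for Egf and 1.78 for Nrg2. MBMECs had no Nrg2 counts and TDEC day 5 had 221, at least 95.3-fold higher by the same floor. Against MBMECs, day 5 had 2 of the 4 tested called higher (Nrg2, and Egf by 2.39 on the log2 scale). It had 1 called lower (Nrg1, log2 fold change −6.97), beside 28.1% and 20.8% of all genes. Nrg2 passed the filter here only through day 5, so it could not have been called lower. Nrg1, the neuregulin that binds Erbb3 and Erbb4, was at 0.92 ± 0.22 CPM at day 5 against 116 ± 14.3 CPM in MBMECs (SD, n = 3 each), and it rose with sertraline to 2.1, 1.95 and 1.96 CPM, against 1.00, 0.67 and 1.08 CPM (log2 fold change 1.12 ± 0.31, adjusted p = 0.01).

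Of the 10 genes of ligand processing and release, 9 were tested at day 5 against 005, where 0 were called higher and 2 lower, beside 13.1% and 10.4% of all genes. The sheddase Adam12 had 81.3, 76.1 and 79.8 CPM at day 5 against 341, 340 and 310 CPM in 005, and Adam19 had 36.0, 34.6 and 35.9 CPM against 130, 123 and 145 CPM. Both fell, with log2 fold changes of −2.08 ± 0.06 and −1.92 ± 0.08 (SE, adjusted p = 5.7e-11 and 6.7e-10). The main sheddases of ErbB ligands, Adam17 and Adam10, had log2 fold changes of −0.18 (adjusted p = 0.023) and 0.30 (adjusted p = 0.007), both far from the fold threshold. Rhbdf2, a carrier of Adam17, was at 1.00, 1.09 and 0.08 CPM at day 5 against 74.9, 76.7 and 76.2 CPM in MBMECs, a log2 fold change of −6.71 ± 0.17 (adjusted p = 3.7e-24). Rhbdf1, of the same list, averaged 56.5 CPM against 85.9 CPM (−0.60, short of the fold threshold). Against MBMECs, 2 of 10 were called higher (Bace1, 1.86, and Adam12, 1.17), beside 28.1% of all genes. Another 2 were called lower (Rhbdf2, and Adam19, −2.01), beside 20.8%. Rhbdf2 was tested in this comparison alone, which it entered through its MBMEC counts (3441, against 25 at day 5). At day 5 against day 2, Adam12 (−1.87) and Adam19 (−1.40) were called lower, 2 of 9 beside 9.35%.

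Among 12 adaptors and effectors, Eps8, a substrate of Egfr, was called higher at day 2 against 005 (log2 fold change 1.08 ± 0.12 SE, adjusted p = 3.5e-05), and Eps8 and Shc1 at day 5 against 005 (1.6 ± 0.08 and 1.06 ± 0.07), shares near those of all genes (5.35% and 13.1%). Gab1, a docking protein, was at 50.7, 54.7 and 58.2 CPM at day 5 against 1.01, 0.67 and 0.48 CPM in MBMECs. Of these 12 genes, 3 were called higher against MBMECs, Gab1 and Pik3r1 (log2 fold change 2.05) among them, beside 28.1% of all genes. Shc1 was the 1 called lower (−1.59), beside 20.8%. In the 12 genes of receptor turnover and inhibition, 2 were called higher at day 5 against 005, a share near the 13.1% of all genes. Lrig1, a transmembrane inhibitor of ErbB receptors, had 846, 816 and 845 CPM against 331, 328 and 339 CPM (1.31 ± 0.05, adjusted p = 4.5e-10), and Eps15, an endocytic substrate of Egfr, was just past the threshold at 1.01. Against MBMECs, 1 of these 12 was called higher (Lrig1, 2.43) and 1 lower (Sh3kbp1, −1.77), beside 28.1% and 20.8% of all genes. The medians of these lists for day 5 against 005 were 0.85 for the EGF-family ligands, −0.14 for processing, −0.06 for adaptors and 0.02 for turnover. With sertraline, Nrg1 was the 1 gene called in the 4 lists, beside 1.82% of all genes called higher and 3.26% lower, and the list medians lay between −0.23 and 0.07.

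**Figure D5:**
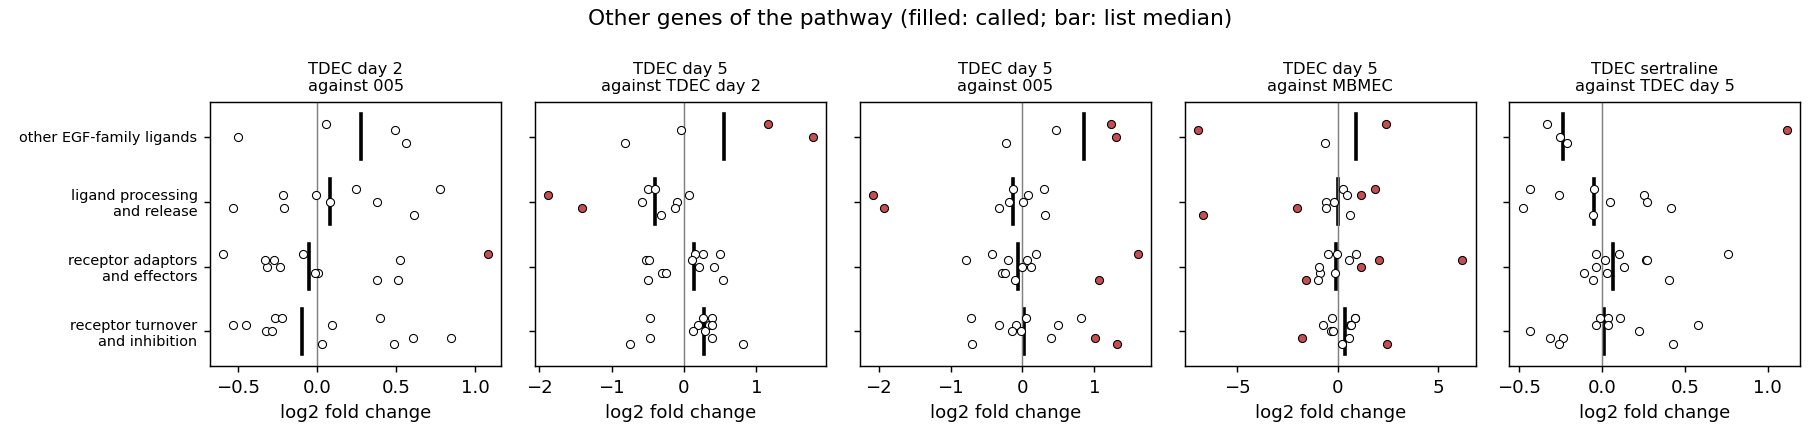
log2 fold change (edgeR) of the tested genes of the 4 pathway lists in each comparison, with filled points for calls and a black bar for the list median. Most points are open. Nrg2, which had no counts in MBMECs, is left out of the points of that panel.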

How the data were processed

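The authors deposited 1 table of gene-level read counts, whole numbers without normalization, for 15 poly(A) RNA libraries. According to the notes of the submitters on processing, reads were demultiplexed with bcl2fastq 2.19, trimmed with Trimmomatic 0.38, aligned to mm10 with HISAT2 2.1.0 and counted with featureCounts 1.6.3. The strand setting, the treatment of reads with several alignments and the annotation release are not given in the sources used here. Gene-level counts do not separate isoforms.

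The 6 libraries of each of 5 comparisons were scaled by TMM, filtered by filterByExpr (minimum count 10) and tested by the quasi-likelihood test of edgeR 4.0.16 (R 4.3.3) with Benjamini-Hochberg adjustment over all genes. Calls needed an adjusted p under 0.05 and an absolute log2 fold change above 1. The SE was derived from the F statistic. The order of group levels and the printed CPM came from all 15 libraries. The scripts were tested on simulated data. Depth was 11283680 to 17093061 counts per library, so that genes under about 1 CPM rest on few counts. Counting intervals and floors cover counting error only. Gene coordinates are those of the deposited table (mm10). Exon lengths came from the GENCODE M21 annotation, in which 9 of the 10 members have the same start and end, all but Hbegf.

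All 10 members are named, with up to 2 called genes per direction by smallest p of each pathway list and comparison and the 3 most similar genes of each member with at least 1 CPM in a group. Adam10, Adam17 and Rhbdf1 were named beside them after their values were seen. The members and lists were chosen with earlier results of these data known, and Hbegf, Areg and Egf are in a list of blood vessel genes that the study picked from these libraries. That list also prints Erff1, which may stand for Errfi1. The authors' text calls the libraries of the drug experiment biological replicates and does not say so of the others, so that p-values measure the spread between libraries, which may be technical. Alternatives were DESeq2 1.42.0, other scalings, no filter, no minimum fold change, a fit over all libraries, a replicate block and leaving out each library.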

Additional observations from a re-analysis of the deposited data

How the results depend on the processing

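Of the member calls, those of Hbegf at day 2 and of Areg at day 5 against day 2 depended on the settings tried. The number of members called higher at day 5 against day 2 was 2, and it was 1 with library totals in place of TMM, 1 with no filter on low counts, 4 with no minimum fold change, 3 in the 15-library fit, and 1 to 2 when a library was left out. The 15-library fit added Ereg, with 17 counts at day 5 against 3 at day 2, which passed its filter only through MBMECs. Areg had a log2 fold change of 0.95 with library totals, 0.99 with no filter and 0.96 to 1.06 without a library. The number called lower at day 5 against 005 was 0, and 1 (Egfr) with library totals, at −1.08, or with no minimum fold change, at −0.95. Library totals moved the median of all genes by −0.13 in that comparison. Leaving out a library gave 2 to 3 members higher and 2 lower at day 2 against 005, 4 higher at day 5 against 005, 4 to 5 higher and 3 lower against MBMECs, 2 higher with sertraline, and 19 to 21 of 40 neighbouring pairs that differed. Hbegf at day 2 was 0.85 without day 2 replicate 3 and 0.86 without replicate 3 of both groups, the second chosen after seeing the data.

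Signs turned for these differences, which no setting called. At day 2 against 005, Erbb2 was −0.0492 with library totals and −0.074 to 0.132 over the fits without 1 library or without replicate 3 of both groups, and Tgfa −0.124 to 0.467 without a library. At day 5 against day 2, Btc was 0.00314 with DESeq2, 0.0538 with upper-quartile scaling, 0.0116 in the 15-library fit and −0.164 to 0.173 without a library, and Hbegf −0.0285 to 0.724, the highest without day 2 replicate 3 (adjusted p = 2.1e-08). Without a library, Hbegf was −0.0188 to 0.115 against MBMECs and Areg −0.0815 to 0.318 with sertraline. The cause was not tested.

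Without a minimum fold change, genes called higher and lower numbered 2882 and 3095 at day 2 against 005 (821 and 687 with it), 4812 and 4954 at day 5 against day 2 (1726 and 1450), 5068 and 5163 at day 5 against 005 (2043 and 1633), 7368 and 6482 against MBMECs (4534 and 3359), and 2738 and 2751 with sertraline (283 and 506). Libraries of equal replicate number did not deviate together (correlations of −0.11 to 0.02). With the replicate block, 3 members were called higher and 2 lower at day 2 against 005, 2 higher at day 5 against day 2, 4 higher at day 5 against 005, 4 higher and 3 lower against MBMECs and 2 higher with sertraline, the numbers found without it. Depth limits Erbb3, Ereg in 005 and TDECs, and Btc in 005.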
